A study of Sus scrofa with 4 samples.

Results

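The Toll-like receptors TLR1 to TLR10 were read in spleen RNA of miniature pigs on a porcine oligonucleotide microarray from Agilent. Members were the probes, other than controls, whose transcript accession belongs to a RefSeq transcript of one of the 10 receptor genes. They were found for 9 of 10 receptors and by 13 of 43603 probes, where 3020 genes in all had a named probe. TLR5 had no probe named by this match and was not analysed here. TLR4 had 4 probes, TLR3 had 2, and each other receptor had 1. All 13 probes were well above background on all 4 arrays. Each probe carries a transcript accession, that of TLR1 being NM_001031775, of TLR6 NM_213760, of TLR7 NM_001097434 and of TLR8 NM_214187. The reference table also lists TLR6 as an older name of TLR1 and TLR7 as an older name of TLR8, so the accession and not an old symbol decided the match.

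Of the 4 arrays, 3 carried spleen RNA of wild-type pigs, called WT 1, WT 2 and WT 3. The remaining array carried spleen RNA of a pig labelled IL2RG +/-, called KO here. All animals were labelled Minnesota miniature swine, and the labels give no age. Per the study, 1 copy of IL2RG was disrupted with a TALEN nuclease and the animals were made by somatic cell nuclear transfer, and whether WT pigs were cloned is not given in the sources used here. IL2RG encodes the common gamma chain, a subunit that interleukin 2 and several other cytokines need in their receptors. WT 1 and KO lay on slide 1, and WT 2 and WT 3 on slide 2, each slide with a scan of its own. Spots well above background made up between 66.1% and 72.7% of an array. The targeted gene had 2 probes, and both were lowest on KO, by a log2 difference from the WT mean of -0.77 on the brighter and -2.12 on the other. Neither passed adjustment in limma (adjusted p = 0.578 and 0.403).

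Toll-like receptors are membrane proteins that recognise conserved molecules of microbes. TLR1, TLR2, TLR4, TLR6 and TLR10 act mainly at the cell surface, where they meet lipoproteins, lipopolysaccharide and other parts of the microbial envelope. TLR3, TLR7, TLR8 and TLR9 act in endosomes, where they meet nucleic acids. All except TLR3 pass the signal through the adaptor MYD88, whereas TLR3 uses TICAM1 and TLR4 can use both routes, and the pathway ends at transcription factors of the NF-kB and IRF families. In spleen the receptors are known mainly from macrophages, dendritic cells and B cells.

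The comparison asked how each receptor differed between the KO spleen and the 3 WT spleens. On 1 probe for each receptor, the KO value lay above all 3 WT arrays for 6 of 9 receptors, namely TLR2, TLR3, TLR4, TLR6, TLR7 and TLR8. It lay below all of them for TLR10 and within the WT range for TLR1 and TLR9. Over all 33464 probes tested, KO was above all WT arrays for 27.0%, below all of them for 34.9% and within the WT range for 38.2%. Over the 2742 named genes tested these shares were 38.1%, 24.2% and 37.7%, so the named genes as a whole also leaned towards a higher KO value. With a difference from the WT mean of at least 2-fold added, 5 receptors were higher and 1 was lower, beside 7.35% and 11.6% of all probes (18.9% in both directions). Over named genes those shares were 13.5% and 9.19%, or 22.7% in both directions. The median difference of the 9 receptors was 1.14 on the log2 scale, beside -0.11 over all probes tested and 0.08 over named genes.

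None of these differences passed the test. Limma with Benjamini-Hochberg adjustment over all probes called 0 of 9 receptors and 0 of 33464 probes (0.00%), with a smallest adjusted p of 0.0715 for any probe. At an unadjusted limma p under 0.05 there were 7 receptors, the same 7 that lay outside the WT range, where 11.3% of all probes and 14.6% of named genes had such a p. Of these 7 receptors 6 were higher and 1 was lower on KO, beside 5.33% and 5.95% of all probes and 10.7% and 3.87% of named genes. The test rests on the spread among the 3 WT arrays and assumes that the lone KO array varies like them. The labels do not say that the WT arrays came from separate animals, so this spread may be technical. An exact permutation test over 4 arrays cannot give a p below 0.25.

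**Figure D1:**
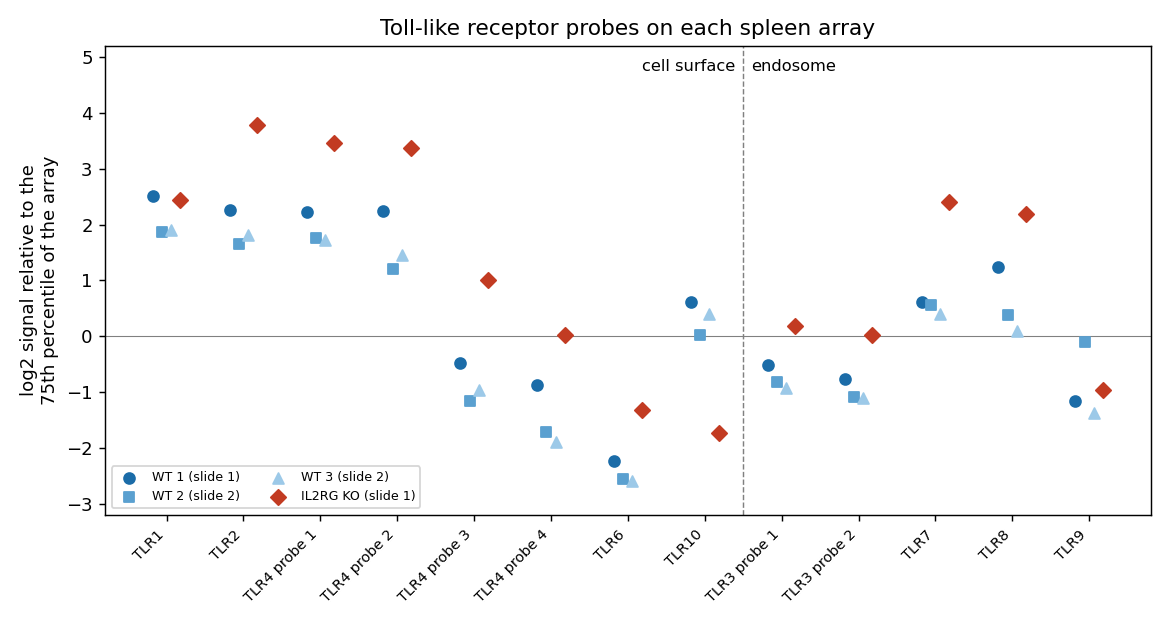
Log2 signal of each of the 13 receptor probes on each array, on a scale whose 0 is the 75th percentile of that array, with cell surface receptors left of the dashed line and endosomal receptors right of it; points are single arrays. The KO point (red) is above all 3 WT points on both TLR3 probes, all 4 TLR4 probes and the probes of TLR2, TLR6, TLR7 and TLR8, and below them for TLR10.

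Levels are given on a log2 scale on which 0 is the signal at the 75th percentile of the same array. TLR2 forms pairs with TLR1 or TLR6 and recognises bacterial lipoproteins. Its level was 2.26, 1.65 and 1.81 on the WT arrays, in the order WT 1, WT 2, WT 3 that is kept from here on, and 3.78 on KO. The WT values lay close together and KO stood apart above them, with a signal of 8899 in units of the scanner against 2563 to 3058 in WT. The difference from the WT mean of 1.90 ± 0.31 (SD, n = 3) was 1.88 (standard error 0.37, limma, adjusted p = 0.371), a fold of 3.68.

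TLR1, a partner of TLR2, was 2.52, 1.86 and 1.90 in WT and 2.44 on KO, so KO lay inside the WT range. The difference was 0.35 with a 95% interval from -0.77 to 1.46 (limma, adjusted p = 0.739), which holds both no difference and a 2-fold higher level. TLR6, the other partner, was the dimmest receptor on each WT array, at -2.24, -2.55 and -2.60, and was -1.33 on KO. Its WT arrays differed by at most 0.37, and KO was above them with a difference of 1.14 (standard error 0.31, limma, adjusted p = 0.413). TLR1 and TLR6 are close paralogues, and whether their probes tell the transcripts apart was not tested, since no probe sequence was at hand.

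TLR4 recognises bacterial lipopolysaccharide together with CD14 and LY96. On its brightest probe the level was 2.23, 1.76 and 1.73 in WT and 3.47 on KO, with no overlap between the groups. The difference was 1.56 (standard error 0.35, limma, adjusted p = 0.391). The other 3 probes gave differences of 1.74, 1.88 and 1.53, so all 4 probes of this gene gave a KO value from 2.88 to 3.68 times that of the WT mean. Their WT means ran from 1.91 down to -1.50, so probes of the same gene differed widely in brightness. Probes of 1 gene on the same array share their RNA and are no replicates.

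TLR10 stood alone in the other direction. It is a surface receptor of the TLR1 group, known in man mainly from B cells, with ligands that are less well defined. Its level was 0.61, 0.02 and 0.40 in WT and -1.74 on KO. KO was below the lowest WT array by a log2 difference of -1.76, and its scanner signal was 194 against 830 to 1081 in WT. The difference from the WT mean of 0.34 ± 0.30 (SD, n = 3) was -2.08 (standard error 0.36, limma, adjusted p = 0.342), so that WT was 4.23 times as bright as KO. Of all tested probes, 2.56% had a difference at or below this one. This was the only receptor with KO below the WT range. In the RefSeq table of the assembly Sscrofa11.1, used here for names and neighbours, TLR10, TLR1 and TLR6 are consecutive genes on chromosome 8. These neighbours gave differences of -2.08, 0.35 and 1.14 in that order.

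TLR7 and TLR8 recognise single-stranded RNA in endosomes. TLR7 was the tightest receptor among WT arrays, at 0.62, 0.57 and 0.39, with 2.41 on KO. Of all tested probes, 13.1% had a WT SD below its SD of 0.12. The difference of 1.88 (standard error 0.28, limma, adjusted p = 0.310) had a 95% interval from 1.11 to 2.66, and the adjusted p was the lowest of the 13 probes. TLR8 was 1.24, 0.38 and 0.08 in WT and 2.18 on KO. Its WT arrays spread over 1.16, more than 2-fold, and KO lay above them with a difference of 1.61 (standard error 0.56, limma, adjusted p = 0.440). In the same table TLR7 lies within the span of TLR8 on chromosome X, the chromosome that also holds IL2RG in mammals.

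TLR3 recognises double-stranded RNA. Its brighter probe was -0.51, -0.81 and -0.92 in WT and 0.19 on KO, a difference of 0.94 (standard error 0.32, limma, adjusted p = 0.435). The other probe differed by 1.01, so the receptor lies just below a 2-fold difference on 1 probe and just above it on the other. On both probes KO was above all WT arrays.

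TLR9 recognises unmethylated CpG DNA and is known from B cells and plasmacytoid dendritic cells. It was -1.16, -0.11 and -1.38 in WT and -0.97 on KO. WT 2 was high, and KO lay between the other WT arrays and WT 2. Its WT SD of 0.68 was the largest of the 9 receptors. The difference of -0.09 had a 95% interval from -1.82 to 1.64 (limma, adjusted p = 0.960), so a difference of 2-fold in either direction was not detectable with these arrays. On the probe that stood for each receptor, TLR8 and TLR9 were the 2 of 9 with a WT range of at least 2-fold, where 29.5% of all probes and 32.2% of named genes had such a range.

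**Figure D2:**
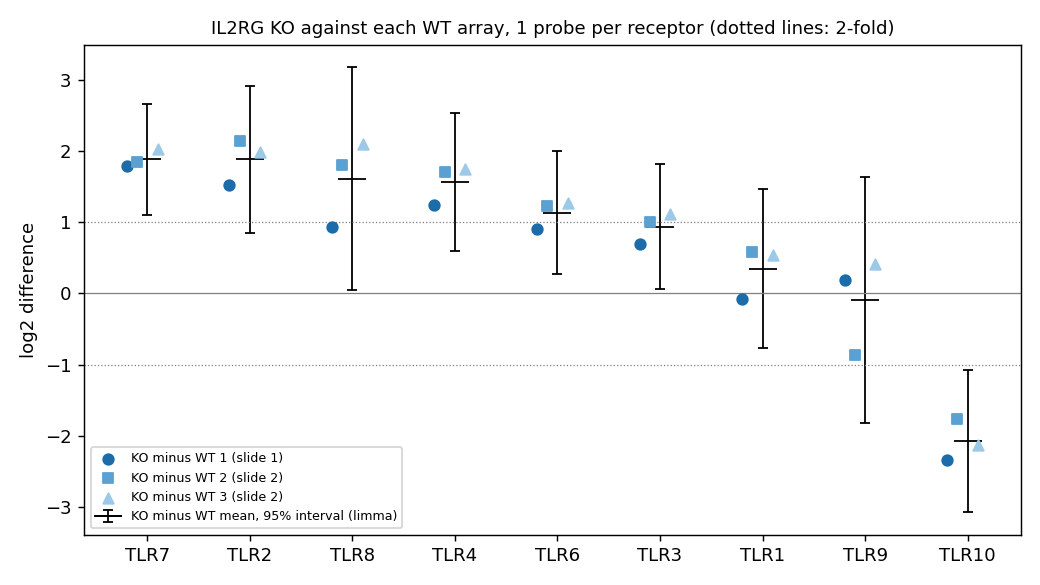
Log2 difference between the KO array and each WT array for 1 probe of each receptor, ordered by the difference from the WT mean; blue points are single WT arrays and black bars give the difference from the WT mean with its 95% interval from limma. The points of TLR7 sit between 1.79 and 2.02, those of TLR10 between -2.34 and -1.76, and those of TLR1 and TLR9 on both sides of 0.

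Slide and genotype overlapped in part, so each receptor was also read within slide 1, where KO and WT 1 lay together. KO was above WT 1 by 1.53 for TLR2, 1.24 for TLR4 and 1.79 for TLR7. It was above by less than 2-fold for TLR8 at 0.94, TLR6 at 0.91 and TLR3 at 0.70. TLR10 was lower by a log2 difference of -2.34. At least 2-fold apart from WT 1 were thus 3 receptors in the higher direction and 1 in the lower, beside 7.94% and 8.07% of all probes and 13.4% and 6.78% of named genes. For TLR1 and TLR9 the sign of the difference turned within the slide, to -0.075 and 0.18. WT 1 was above the mean of WT 2 and WT 3 for 8 of 9 receptors, by 0.14 for TLR7 up to 1.01 for TLR8, and below it by a log2 difference of -0.41 for TLR9. For each of the 6 receptors with KO above the WT range, WT 1 was the WT array nearest to KO. Slide and animal cannot be told apart in this difference. The shares of all probes with WT 1 higher, or nearest to KO, were not taken, so neither count is read as particular to the receptors.

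**Figure D3:**
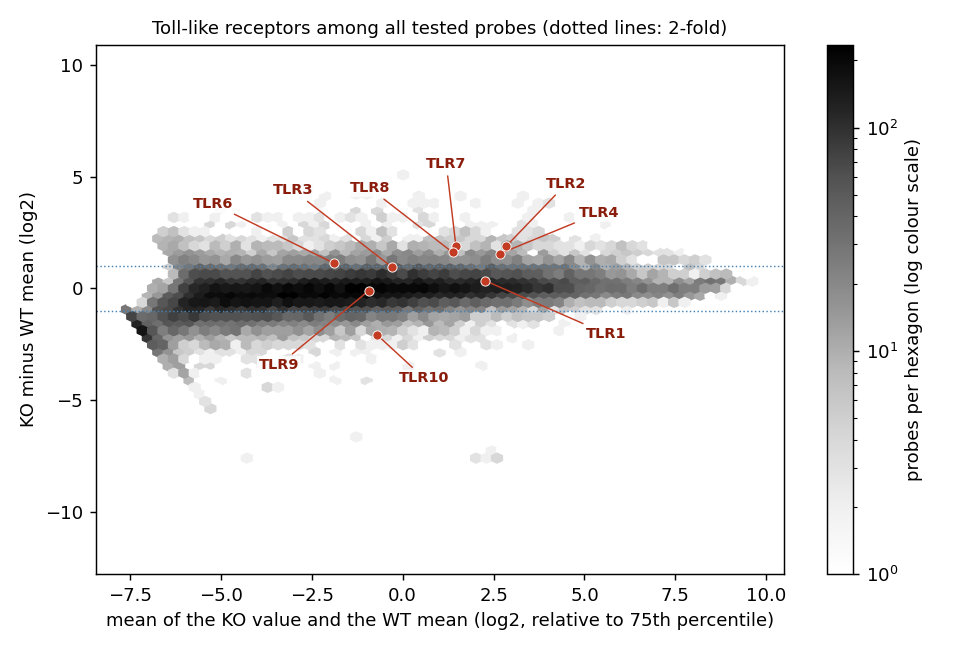
KO minus WT mean on the log2 scale against brightness for all 33464 probes tested (grey, darker for more probes on a log colour scale) and for 1 probe of each receptor (red). TLR2, TLR4, TLR6, TLR7 and TLR8 lie above the upper 2-fold line and TLR10 below the lower one.

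The receptors were then ordered by WT signal. Such an order is of probe signals, not of transcript amounts, since each probe has its own efficiency and the signal is not per length. From the brightest, the WT order was TLR1, TLR4, TLR2, TLR8, TLR7, TLR10, TLR3, TLR9 and TLR6. It fell into a bright group of TLR1, TLR4 and TLR2 with WT means from 2.10 to 1.90, a middle group of TLR8, TLR7 and TLR10 from 0.57 to 0.34, and TLR3, TLR9 and TLR6 below. The ranges of neighbours overlapped within the bright group, within the middle group and between TLR3 and TLR9. They did not overlap between TLR2 and TLR8, between TLR10 and TLR3, or between TLR9 and TLR6. On KO the order was TLR2, TLR4, TLR1, TLR7, TLR8, TLR3, TLR9, TLR6 and TLR10. TLR10 held a place between 4 and 6 on the WT arrays and the last place, 9, on KO, and TLR1 moved from the first place on each WT array to place 3.

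**Figure D4:**
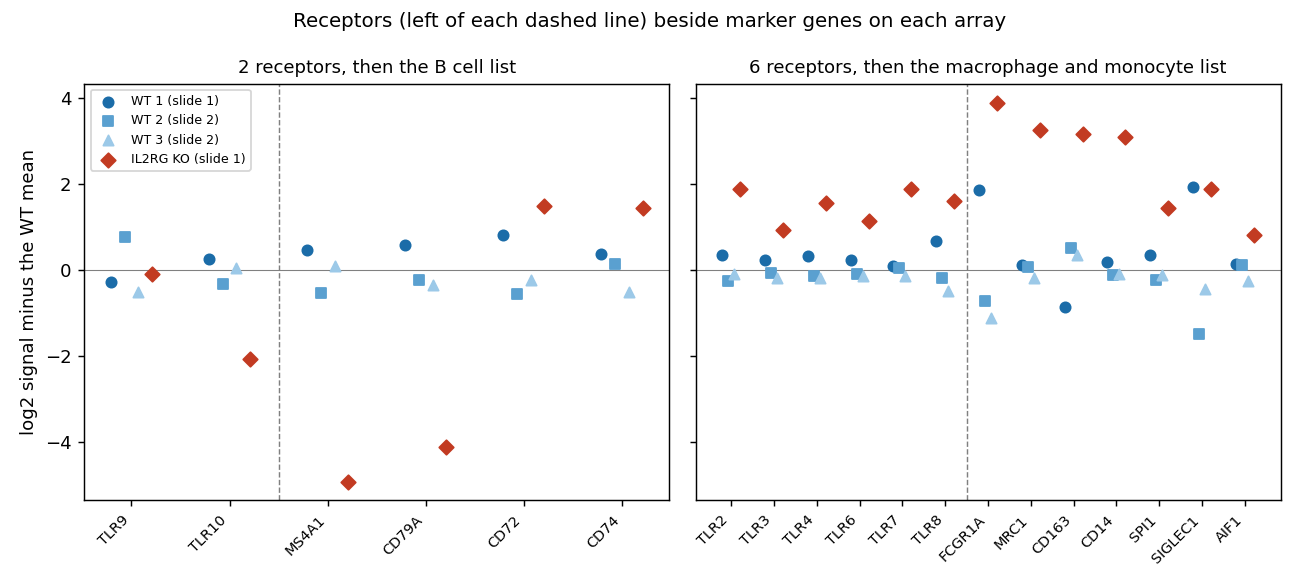
Log2 signal minus the WT mean on each array for TLR9, TLR10 and the B cell list (left panel) and for the other 6 receptors with KO outside the WT range and the macrophage and monocyte list (right panel); points are single arrays. MS4A1 and CD79A lie at -4.92 and -4.12 on KO, on the side of TLR10, and CD72 and CD74 of the same list at 1.49 and 1.44 on the other side, while FCGR1A, MRC1, CD163 and CD14 lie above 3 on the side of the 6 receptors.

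Whole spleen holds many cell types, and in such samples fewer cells of a type and less RNA per cell cannot be told apart. Marker genes are therefore given beside the receptors. Of 13 macrophage and monocyte genes listed, 7 were tested under the listed symbol. Of these 7, 6 lay above all WT arrays on KO, beside 27.0% of all probes and 38.1% of named genes. The median difference was 3.08, or 2.04 within slide 1. Their summed linear signal, in multiples of the 75th percentile signal, was 90.6 to 112 on WT arrays and 329 on KO. MRC1, a mannose receptor, was -1.51, -1.56 and -1.82 on the WT arrays and 1.62 on KO. CD163, the haemoglobin scavenger receptor of red pulp macrophages, differed by 3.17 and FCGR1A, a high-affinity antibody receptor, by 3.89, or 2.04 within slide 1. Limma called 0 genes of this list, and the adjusted p was 0.284 for MRC1, 0.387 for CD163 and 0.440 for FCGR1A. The part of macrophage content in the 6 higher receptors was not tested.

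Of 12 B cell genes listed, 4 were tested, of which 2 lay below all WT arrays and 2 above. Beside these counts stand 34.9% and 27.0% of all probes, and 24.2% and 38.1% of named genes. The median difference was -1.34, or -2.01 within slide 1. MS4A1, which encodes CD20, was 1.38, 0.38 and 1.00 on the WT arrays and -4.00 on KO, a difference of -4.92 (limma, adjusted p = 0.284). CD79A, a chain of the B cell receptor complex, differed by -4.12 (limma, adjusted p = 0.303). The 2 genes above, CD72 and CD74, differed by 1.49 and 1.44, and CD74 is also known from other antigen presenting cells. The summed signal of the list was 24.4 to 44.2 on WT arrays and 82.7 on KO, and CD74 was its brightest gene. None of the 4 was below background on any array. TLR10, MS4A1 and CD79A were lowest on KO, CD72 and CD74 were highest there, and TLR9 was neither. The part of B cell content in the TLR10 difference was not tested.

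Other marker lists are given by their counts and sums. The granulocyte list had 5 tested genes, with a summed signal of 3.27, 16.9 and 101 in WT and 15.8 on KO. Against the WT mean their median difference was 0.46, with 3 genes higher and 2 lower. KO lay above the WT range for 1 of 5 and below it for 0, beside 38.1% and 24.2% of named genes. Within slide 1 the median was 3.17, and KO was above WT 1 for all 5. The share of all probes with KO above WT 1 was not taken. The part of these genes in the receptor differences was not tested. Of 8 T cell genes tested, 3 lay above and 1 below the WT range, beside 38.1% and 24.2% of named genes, with a median of 0.16, or -0.21 within slide 1. The NK cell list had 5 tested genes and a median of 0.81, or -0.65 within slide 1. GZMA enters this median although it was well above background on only 3 of 4 arrays. XCR1 was the only dendritic cell gene tested, and KO lay within its WT range with a difference of -0.39. TLR9 was highest on WT 2, and so was XCR1, at 3.15 against 1.61, 0.97 and 1.52 on WT 1, WT 3 and KO. The summed T cell signal was highest there too, at 75.6 against 48.1, 24.4 and 38.5. Of the T cell genes, CD247, CD3E, CD3G and LCK were highest on WT 2, CD3D on WT 1, and CD4, CD8A and CD2 on KO. The share of all probes highest on WT 2 was not taken. The part of these genes in the TLR9 values was not tested. Median differences were -2.33 for 3 erythroid genes, or 1.51 within slide 1, -1.41 for 4 platelet genes, or 0.037 within slide 1, -0.50 for 4 stromal genes, or -0.27 within slide 1, and 0.38 for 5 control genes, or 0.085 within slide 1. XBP1, the only plasma cell gene tested, differed by -0.13, and by -1.65 within slide 1.

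Genes that work with the receptors were read next, beginning with accessory proteins. Of 10 tested, 6 lay above and 2 below the WT range, beside 38.1% and 24.2% of named genes, and limma called 0. The median was 0.79, or 0.50 within slide 1. LBP, 1 of the 2 below, was well above background on only 2 of 4 arrays and not on KO. Its place below the WT range is therefore not read as a difference, although it enters the count and the median. CD14, the co-receptor that hands lipopolysaccharide to TLR4, was 0.52, 0.22 and 0.25 on the WT arrays and 3.41 on KO, a difference of 3.08 (standard error 0.29, limma, adjusted p = 0.284). CD180, a relative of TLR4, was -0.41, -1.22 and -1.31 in WT and 3.04 on KO, a difference of 4.02 (limma, adjusted p = 0.303). It is known from B cells as well as from myeloid cells, and its KO value lay above WT like those of CD72 and CD74 and unlike those of MS4A1 and CD79A. TREM1, an amplifier of receptor signals on myeloid cells, differed by 4.17 and CLEC7A, a receptor of fungal glucans, by 1.74. CD36, a scavenger receptor that assists TLR2 and TLR6, was lower, at 2.60 on KO against 3.59 to 4.96 in WT. HSP90B1 and CNPY3, the chaperones that fold most receptors of the family, differed by 0.12 and 0.10 and lay within the WT range.

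Of 35 adaptors, kinases and transcription factors listed, 16 were tested. KO lay above all WT arrays for 12 of 16 and below them for 1, beside 38.1% and 24.2% of named genes. The median was 0.57, or 0.53 within slide 1, and limma called 0. MYD88, the adaptor of all receptors except TLR3, was -0.61, -1.83 and -1.42 on the WT arrays and 0.61 on KO, a difference of 1.89 (limma, adjusted p = 0.428). TICAM2, which links TLR4 to TICAM1, differed by 1.55, and NFKB1, a subunit of NF-kB, by 1.49. IRF7, the interferon regulatory factor downstream of TLR7 and TLR9, differed by 2.24 with a wide WT spread from 1.69 to 3.80. IKBKB, a kinase that releases NF-kB, differed by 1.16. IRF3, the factor downstream of TLR3 and TLR4, lay within the WT range with a difference of 0.02, and TRAF6, the ubiquitin ligase below MYD88, lay just above it with 0.30.

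Of 15 negative regulators listed, 5 were tested and all 5 lay at least 2-fold above the WT mean and outside the WT range, beside 7.35% of all probes and 13.5% of named genes. The median was 1.62, or 1.13 within slide 1. TNFAIP3, an enzyme that ends NF-kB signalling, was -1.25, -1.67 and -1.44 on the WT arrays and 0.58 on KO, a difference of 2.04 (limma, adjusted p = 0.315). NFKBIA, the inhibitor that holds NF-kB in the cytosol, differed by 1.42, SOCS3 by 1.32 and TNIP1, a partner of TNFAIP3, by 1.89. USP18, which limits interferon signals, differed by 1.62 from the WT mean and by 0.04 from WT 1 on the same slide. Limma called 0 of the 5.

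Cytokines and enzymes that the pathway can induce had the most genes. Of 22 tested, 19 lay at least 2-fold above the WT mean and outside the WT range, 0 lay below it, and the median was 1.83, or 1.54 within slide 1. By the same rule 7.35% of all probes and 13.5% of named genes were higher. PTGS2, the inducible cyclooxygenase, was -2.09, -2.92 and -2.87 on the WT arrays and 1.97 on KO, a difference of 4.60 (limma, adjusted p = 0.284). CXCL10, an interferon-induced chemokine, differed by 4.21, IL1B by 3.81, the neutrophil chemokine CXCL2 by 3.52 and IL27 by 2.92. CXCL8, a neutrophil chemokine named after its values had been seen, was -5.13 and -5.51 on WT 1 and WT 2 and 2.59 on KO, and was not well above background on WT 3, so no difference from the WT mean is given. Limma called 0 of 22, and 17 had an unadjusted p under 0.05, beside 11.3% of all probes and 14.6% of named genes. CXCL8 is counted in the 19 and in the 17 and enters the median of this list, although it was not well above background on WT 3. Of 13 other pattern recognition receptors tested, 10 met the same rule of size and range and 0 lay below the WT range, again beside 7.35% of all probes and 13.5% of named genes. The median was 1.97, or 1.67 within slide 1. CD209 enters this median although it was well above background on only 3 of 4 arrays. In that list NOD1, a cytosolic sensor of peptidoglycan, differed by 3.02, CASP1, the protease of the inflammasome, by 2.99, NLRP3 by 2.38 and DHX58, a sensor of viral RNA, by 2.19. For DHX58 the difference was 0.62 within slide 1. These lists share CD14, CLEC7A and MRC1 with each other or with the macrophage list.

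**Figure D5:**
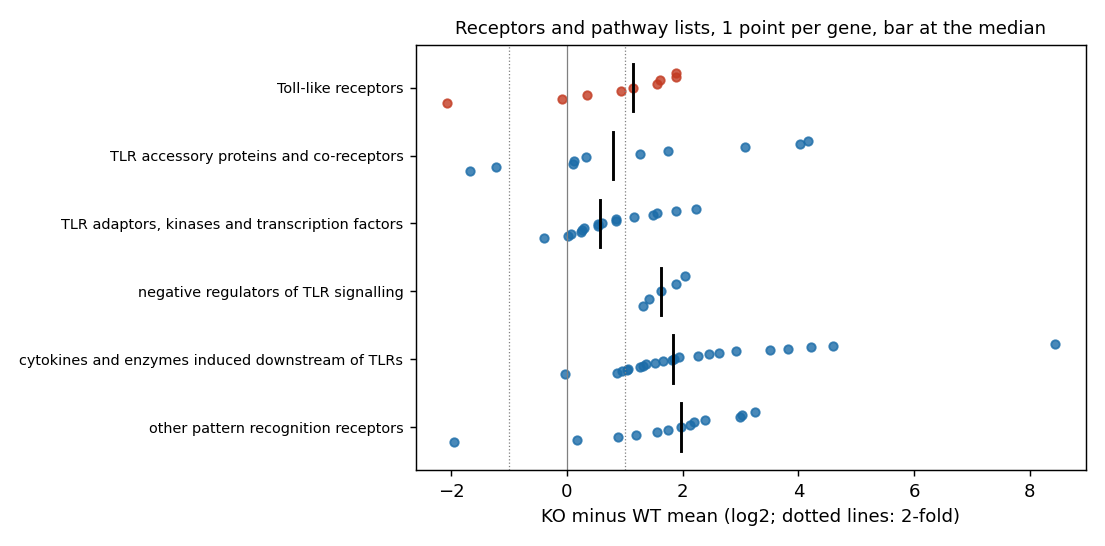
KO minus WT mean on the log2 scale for 1 probe of each gene, with the 9 receptors in red and the 5 pathway lists in blue; black bars are medians. The point farthest to the right is CXCL8, which was not well above background on WT 3. LBP and CD209, also plotted, were not well above background on all 4 arrays. The receptor median is 1.14, and the list medians are 0.79 for accessory proteins, 0.57 for adaptors, kinases and factors, 1.62 for negative regulators, 1.83 for induced cytokines and enzymes and 1.97 for other pattern recognition receptors.

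Named genes with the most similar pattern were sought for the receptors at both ends of the range. Likeness was the Euclidean distance over the 4 arrays between log2 levels after subtraction of each gene's mean, among 2431 other named genes well above background on all arrays. Among the genes nearest to TLR7 were PDXK, the kinase of vitamin B6, at a distance of 0.21, and GP91-PHOX, the catalytic subunit of the phagocyte oxidase, at 0.30. GP91-PHOX is another name of CYBB, a gene of the macrophage and monocyte list that was not matched there. PDXK was 2.04, 1.75 and 1.67 on the WT arrays and 3.57 on KO. Nearest to TLR10 were FAM209B at 0.13, CCL21, a chemokine that guides lymphocytes and dendritic cells, at 0.14, and PXDC1 at 0.17. CCL21 was 1.72, 1.08 and 1.36 on the WT arrays and -0.80 on KO. The distance rests on 4 arrays, of which 1 is KO.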

How the data were processed

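Spleen RNA was measured on 4 Cy3 arrays, 3 labelled WT and 1 KO. The authors extracted the deposited intensities in Agilent Feature Extraction 11.0.1.1, as the headers state, with background correction within an array and no scaling between arrays. The headers list 1 channel, although the study's methods describe a dye pair. The series table deposited by the authors holds log2 values with equal distributions on all arrays and served as an alternative.

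Each array's 75th percentile was subtracted from its log2 processed signals, and replicate spots were then averaged. Flagged spots removed 28 probes. Probes well above background on at least 1 array were tested (33464 of 43575). The number of arrays limits precision. Accessions were matched without versions to RefSeq transcripts of Sscrofa11.1, which named 6686 of 43603 probes (15.3%), and no coordinates are given because the files name no genome build. The brightest probe stood for a gene.

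Differences were fitted in R 4.3.3 with limma 3.58.1 (lmFit, eBayes, two-sided, 2 residual and 1.93 prior degrees of freedom), with Benjamini-Hochberg adjustment over all probes. A call needed an adjusted p of 0.05 and a 2-fold difference. The fit was also run on simulated arrays with spreads drawn around the median WT SD. It called 84% of probes changed by 3 log2 units and 100% of those changed by 6, with 3 false calls. Real probes differed more in spread than the simulated ones, so these shares do not give the power in these data. List genes were eligible if detected on every array, 2-fold different and with KO outside the WT range. Of these, the largest 5 of a pathway list and 3 of a marker list were named. Further members illustrate genes near the WT mean. Alternatives covered scaling, normexp (on median signals), filters, the choice of probe, the slide as a block, the methods' t-test and each WT array left out. Genes that the rules would name are not reported here in 2 cases, 1 of them left out of the B cell list. The members and lists were chosen with earlier results of these data known. Python 3.11.15 and pandas 2.3.3 read the files.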

Additional observations from a re-analysis of the deposited data

How the results depend on the processing

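Under 14 alternatives, limma or the methods' t-test called 0 of 9 receptors after adjustment, and the lowest adjusted p of a receptor was 0.0743. Over all probes, normexp called 4 and eBayes with a trend called 6, against 0 in the report, and the cause was not tested. The methods' t-test gave 5 receptors and 1333 probes that were 2-fold different at an unadjusted p under 0.05, and 0 probes after Benjamini-Hochberg or Bonferroni adjustment. The receptor median of 1.14 was 1.38 under the median shift, where the median of all tested probes was 0.14 in place of -0.11. It was 0.84 under normexp and 0.91 with the slide as a block, where only WT 1 stands for WT. It lay between 1.07 and 1.25 when a WT array was left out. Under quantile normalisation it was 1.24 with a median of -0.02 over all probes. The number of receptors at least 2-fold apart and outside the WT range lay between 4, with the slide as a block, and 7, under the median shift or without WT 1. TLR9 changed sign to 0.15 under the median shift, 0.18 with the slide as a block and 0.30 without WT 2 (from -0.34 to 0.30 with a WT array left out), and TLR1 to -0.075 with the slide as a block. TLR2, TLR3, TLR4, TLR6, TLR7, TLR8 and TLR10 kept their direction under all 14. The filters, eBayes with a trend and the methods' t-test left each difference as it was, so no direction could turn under them. Taking the mean over the probes of a gene could move only TLR3 and TLR4. No paired analysis was possible because the KO label carries no replicate number.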
